A study of Mus musculus with 7 samples.

Results

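The miR-29 family was followed in small RNA bound to Argonaute 2 (Ago2) in mouse plasma. Its members were taken by name from the deposited counts, as every mature miRNA processed from the hairpins of miR-29a, miR-29b (29b-1 and 29b-2) or miR-29c. This gave 4 of the 640 mature miRNAs counted: miR-29a-3p, miR-29b-3p, miR-29c-3p and miR-29c-5p. The arms miR-29a-5p, miR-29b-1-5p and miR-29b-2-5p had no row in the counts and were not analysed here. Plasma came from adult male C57BL/6JOlaHsd mice, given as c57 in the labels. Status epilepticus (SE) was triggered by kainic acid (KA) injected into the amygdala and cut short with a benzodiazepine, and control mice received PBS by the same route. Each library was a pool of plasma from 10 mice. The 3 control libraries were of 4 h, 8 h and 24 h after injection, and the 4 SE libraries were of the same times and of 2 weeks. There was 1 library per condition, so no value below has a replicate error. For SE 2 weeks the 24 h control served as control, because no 2-week control library was analysed here.

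A miRNA acts through the arm of its hairpin that is retained in an Argonaute protein, and the seed, bases 2 to 8 of that arm, selects its target mRNAs. The miR-29 family is known for repressing collagens and other extracellular matrix genes, DNA methyltransferases and, in mature neurons, pro-apoptotic BH3-only genes. It is abundant in brain, and the study's own compilation of published enrichment assigns miR-29a-3p and miR-29c-3p to astrocytes and miR-29b-3p to microglia. In bulk plasma, release from more cells and release of more RNA per cell cannot be told apart.

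The 3 mature sequences of the 3p arm are shown because they carry nearly all of the family's counts and differ by few bases. They are from RefSeq on GRCm38.p6, written 5′ to 3′, with the seed in capitals.
miR-29a-3p: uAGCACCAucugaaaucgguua
miR-29b-3p: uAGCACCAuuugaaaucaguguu
miR-29c-3p: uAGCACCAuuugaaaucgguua
The seed AGCACCA was the same in all 3, and of 1679 mature mouse names in the RefSeq table these 3 alone carried it. Counted from 1 at the 5′ end, miR-29a-3p and miR-29c-3p differed at 1 of 22 positions (C10U, with the base of miR-29a-3p first). miR-29b-3p differed from miR-29c-3p at 3 of the 22 shared positions (A18G, G21U and U22A, with the base of miR-29b-3p first) and is 1 base longer. miR-29b-3p ends in AGUGUU, a hexamer known to direct it to the nucleus, and 2 of the 1679 mature names (0.119%) end in these letters. Reads had been assigned with up to 2 mismatches allowed. Counted over the 22 shared positions, the single difference between miR-29a-3p and miR-29c-3p lies within that allowance. The 3 or 4 differences that separate miR-29b-3p from the others do not. Whether reads were matched over that full length was not tested.

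The 4 hairpin genes form 2 pairs in GRCm38. Mir29a (chr6:31062660-31062747) and Mir29b-1 (chr6:31063023-31063093) lie on the minus strand, 275 bases apart. Mir29b-2 (chr1:195037040-195037120) and Mir29c (chr1:195037547-195037634) lie on the plus strand, 426 bases apart, within an exon of the noncoding transcript A330023F24Rik and opposite an exon of Cd46. The mature miR-29b-3p is identical from both of its hairpins, so its counts cannot be divided between the chromosomes. The Mir29c hairpin is shown because both of its arms were counted, with miR-29c-5p the first and miR-29c-3p the second run of capitals.
Mir29c: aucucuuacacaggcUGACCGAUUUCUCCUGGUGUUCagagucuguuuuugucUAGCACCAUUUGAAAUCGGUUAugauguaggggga

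Total counts were between 2043220 (control 4 h) and 5405357 (SE 4 h) per library. Levels are given in CPM, counts scaled to a common library size, with sizes adjusted by the trimmed mean of M-values (TMM), whose factors had their lowest value in SE 24 h (0.754) and their highest in control 8 h (1.22). Erythroid miRNAs (miR-451a, miR-486a-5p and miR-486b-5p, miR-144 and miR-16-5p) held between 62.9% of counts in SE 8 h and 76.5% in SE 24 h. All 6 of them had a row in the counts. The 6 platelet and leukocyte miRNAs held 0.503% to 1.44%, 3 of 4 liver miRNAs with a row 1.03% to 2.58%, and 3 of 7 muscle and heart miRNAs with a row 0.0135% to 0.180%. Of 6 neuronal miRNAs, between 1 and 4 were at 0 in a library, and the list held 0.0974% to 0.264% of counts, mostly of miR-128-3p. Low counts were not spread evenly but piled up near a single value that differed by library. This low-count value was 102 counts in control 4 h and between 33.1 (SE 2 weeks) and 60.2 (control 8 h) in the others. Counts divided by it are called estimated molecules below, on the assumption, not tested here, that it stands for the reads of a single captured molecule.

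The family as a whole, the 3 guide arms summed, was a minor component of the Ago2-bound pool. The controls held 422 (4 h), 1676 (8 h) and 1730 (24 h) counts of it. The SE libraries held 2977 (4 h), 2493 (8 h), 1098 (24 h) and 1288 (2 weeks) counts. These were 242, 389 and 438 CPM in the controls and 699, 685, 392 and 417 CPM in SE, in the same order of time. The 4 h and 8 h SE libraries were thus the highest of the 7, and the 24 h and 2-week SE libraries lay within the range of the controls. As a share of all counts the family went from 0.0207% in control 4 h (95% Wilson interval 0.0188 to 0.0227) to 0.0787% in SE 8 h (0.0757 to 0.0819). Intervals and limits in this text cover counting error only, since reads were not counted by molecular identifiers.

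miR-29a-3p, from the chromosome 6 pair, was the main member in every library. Its counts in the controls were 421 (4 h), 1664 (8 h) and 1562 (24 h). In SE its counts were 2701 (4 h), 2229 (8 h), 1017 (24 h) and 1206 (2 weeks). On the TMM scale the controls were at 242, 386 and 396 CPM, and SE at 634, 612, 363 and 391 CPM. The early SE libraries stood above all 3 controls, while SE 24 h and SE 2 weeks fell between control 4 h and control 24 h. By raw counts miR-29a-3p ranked between 50th (SE 8 h) and 81st (control 4 h) of the 640 miRNAs.

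**Figure D1:**
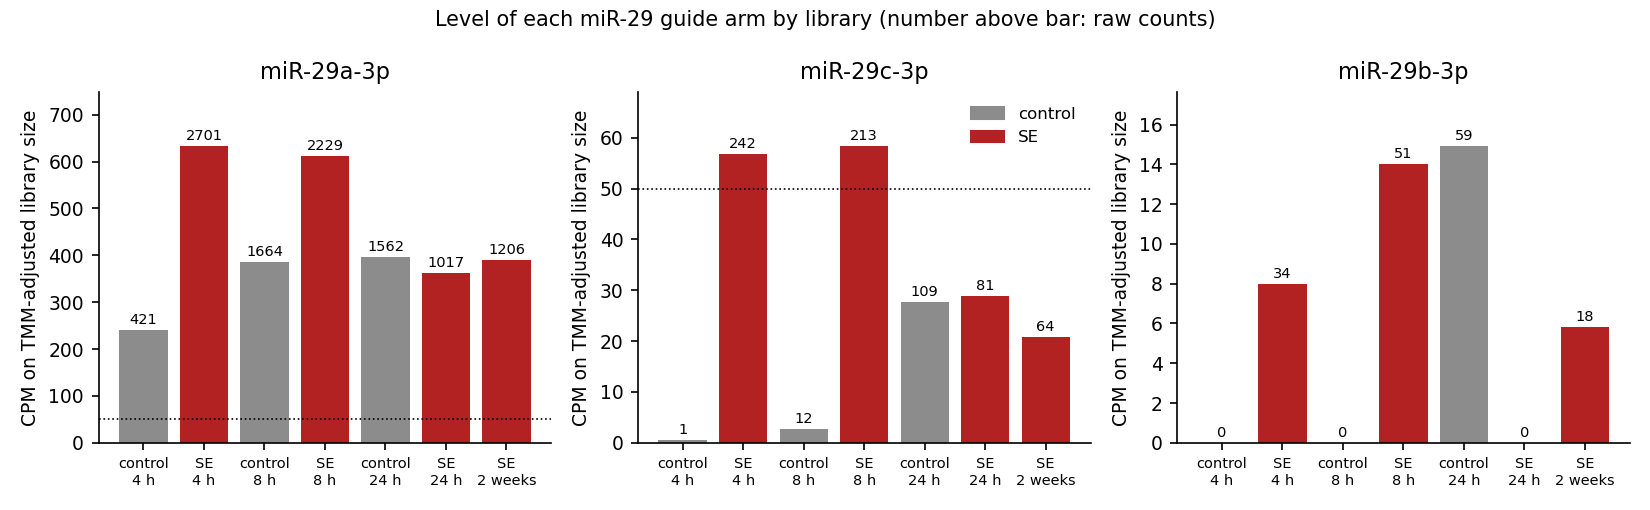
Level of miR-29a-3p, miR-29c-3p and miR-29b-3p in each of the 7 libraries, in CPM on TMM-adjusted library sizes (bars, 1 library each, control grey and SE red), with raw counts above the bars and the 50 CPM threshold dotted where it falls in range. miR-29a-3p and miR-29c-3p were highest in SE 4 h and SE 8 h, and miR-29b-3p did not exceed 15.0 CPM in any library.

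miR-29c-3p, from the chromosome 1 pair, was present at a far lower level and varied over a wider range. Its counts in the controls were 1 (4 h), 12 (8 h) and 109 (24 h). The SE libraries gave 242 (4 h), 213 (8 h), 81 (24 h) and 64 (2 weeks). The levels were 0.574, 2.78 and 27.6 CPM in the controls and 56.8, 58.5, 28.9 and 20.7 CPM in SE. It was therefore close to absent in the earlier controls, highest in the SE libraries of the same times, and at a similar level in control 24 h, SE 24 h and SE 2 weeks.

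miR-29b-3p, which both loci can produce, was close to the limit of detection throughout. It was counted in 4 libraries, with 34 (4 h), 51 (8 h) and 18 (2 weeks) counts in SE and 59 in control 24 h. It had 0 counts in the earlier controls and in SE 24 h, where 3 counts would have been 1.72 CPM (control 4 h), 0.696 CPM (control 8 h) and 1.07 CPM (SE 24 h). At 5.83 to 15.0 CPM where counted, it did not reach the 50 CPM needed for a comparison in any library. The passenger arm miR-29c-5p had 22 counts (5.10 CPM) in control 8 h, more than the 12 counts of its guide arm there, and 0 in the other 6 libraries.

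Read against the low-count value of each library, the small members resolved into very few molecules. miR-29b-3p stood at 0.905 times that value in SE 4 h, 0.983 in SE 8 h, 1.07 in control 24 h and 0.544 in SE 2 weeks. Each of its non-zero counts was thus near a single estimated molecule. miR-29c-3p stood at 6.44 times the value in SE 4 h and 4.11 in SE 8 h. In control 24 h, SE 24 h and SE 2 weeks it stood at 1.98, 1.79 and 1.93 times. Its counts in control 4 h and control 8 h, at 0.00978 and 0.199 times, were well under that value, as was miR-29c-5p in control 8 h at 0.365. miR-29a-3p came to about 4 (4 h), 28 (8 h) and 28 (24 h) estimated molecules in the controls. In SE it came to 72 (4 h), 43 (8 h), 23 (24 h) and 36 (2 weeks), so its estimate in control 4 h was far below the rest. The control 4 h library was the coarsest, where 1 low-count value equalled 58.7 CPM, above the level of miR-29c-3p in all 4 SE libraries.

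**Figure D2:**
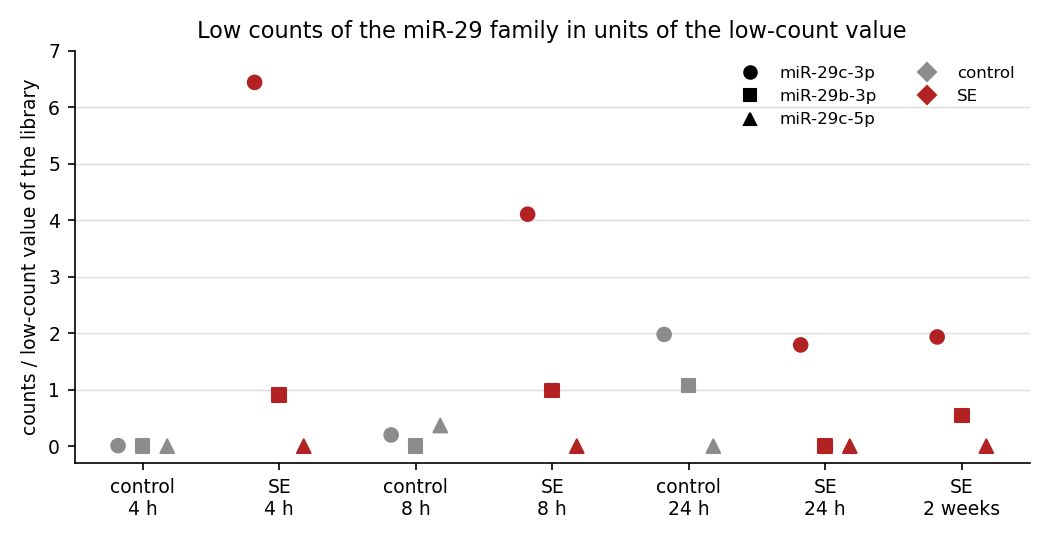
Counts of miR-29c-3p (circles), miR-29b-3p (squares) and miR-29c-5p (triangles) divided by the low-count value of their library, for the 7 libraries (control grey, SE red). The points of miR-29b-3p lay between 0 and 1.07, and those of miR-29c-3p reached 6.44 in SE 4 h.

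Pairs of libraries were then set against each other with the exact test of edgeR, over all miRNAs that reached 50 CPM in at least 1 of the pair. The biological coefficient of variation (BCV), which a single library cannot provide, was fixed at 0.1. The comparison of 3 with 3 libraries described below, which mixes different times, gave an estimate of 0.587. Calls needed 1.5-fold or more with p under 0.05, unadjusted. The outcome speaks of the reads in these pools and not of SE and control mice, and calls were frequent among all miRNAs. With the BCV set at 0.4, the calls at 4 h and 8 h given below were kept for miR-29c-3p and lost for miR-29a-3p. The calls of miR-29c-3p rest on 1 count in control 4 h and 12 in control 8 h. It passed the filter through SE alone, and neither call was kept with estimated molecules.

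At 4 h, miR-29a-3p and miR-29c-3p were both higher in SE, 2 of the 2 members tested. Only in SE did miR-29c-3p reach 50 CPM (56.8 CPM, against 0.574 in control), so the filter itself fixed its direction. In that comparison 67.2% of the 189 miRNAs tested were called, 32.3% higher and 34.9% lower in SE. miR-29a-3p rose 2.63-fold in SE (95% counting interval 2.37 to 2.92), a log2 fold change of 1.39 beside a median of -0.06 over all miRNAs tested. That interval takes each read as independent, while miR-29a-3p came to about 4 estimated molecules in control 4 h and 72 in SE 4 h. On that reading the interval is too narrow. For miR-29c-3p the ratio of counts was 99.0, with a counting interval from 17.6 to 3928 because the control held a single count. Its level in SE was below the 58.7 CPM of 1 low-count value in control 4 h, so the size of this ratio was not resolved. miR-29b-3p was not tested. It had 34 counts in SE against 0 in control, and its 7.99 CPM in SE was below the 58.7 CPM of 1 low-count value in control 4 h, so no fold is given. Control 4 h had the fewest counts of the 7 libraries and, at 76.4%, a larger erythroid share than SE 4 h at 67.9%. Of the 6 platelet and leukocyte miRNAs, 4 were also called higher and 0 lower (median log2 fold change 0.71), as were 2 of the 4 erythroid miRNAs tested, 1 of 2 muscle and heart miRNAs and the 1 liver miRNA tested (0.78). Of the 2 neuronal miRNAs tested, 0 were higher and 1 lower (median -0.41). The part of these differences in the result was not tested. Against control 8 h and control 24 h together, both members were called higher in SE 4 h, with smaller log2 fold changes of 0.70 for miR-29a-3p and 1.93 for miR-29c-3p. There too miR-29c-3p reached 50 CPM in SE alone (2.78 CPM in control 8 h and 27.6 CPM in control 24 h). The filter thus fixed its direction in this comparison as well.

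At 8 h the same 2 members were tested and both were again higher in SE, beside 50% of all 154 miRNAs called, 35.1% higher and 14.9% lower. Here too miR-29c-3p passed the filter through SE alone (58.5 CPM, against 2.78 in control), which fixed its direction. miR-29a-3p rose 1.59-fold (1.49 to 1.69), a log2 fold change of 0.67 where the median of all miRNAs was 0.23. This was just past the 1.5-fold threshold, and with scaling by library size only or by DESeq2's size factors its log2 fold change of 0.58 in both was not called. miR-29c-3p was 21-fold higher (11.8 to 41.3), a log2 fold change of 4.38, and was called with each scaling. This fold change was at the 97.4th percentile of those tested. The 12 counts of miR-29c-3p in the control were 0.199 of its low-count value, so the size of the ratio was not resolved. miR-29b-3p had 51 counts against 0 and was not tested. Its 14.0 CPM in SE was about 1 low-count value of control 8 h (14.0 CPM), so no fold is given. The erythroid share was 62.9% in SE 8 h against 68.0% in the control, and 2 of the 3 neuronal miRNAs tested were called higher in SE (median log2 fold change 1.60). Both muscle and heart miRNAs tested were also called higher (median 1.87), as was the 1 liver miRNA tested (0.74). Of the 4 erythroid miRNAs tested, 0 were higher and 1 lower (median -0.18), and 0 of the 6 platelet and leukocyte miRNAs were called (median 0.05). Their part in the result was not tested. When estimated molecules were compared in place of counts, no member was called at 4 h or 8 h. The log2 fold changes of miR-29a-3p were then 1.5 and 0.58. miR-29c-3p had 6 estimated molecules in SE 4 h and 4 in SE 8 h, against 0 in the control of each time. Its log2 fold changes of 4.85 and 5.03 therefore depended on the small prior count added to avoid division by 0. They do not measure the size of a difference.

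At 24 h miR-29a-3p was the only member tested and was not called, where 44.7% of 141 miRNAs were, 24.8% higher and 19.9% lower. Its ratio was 0.916 (0.846 to 0.992), a log2 fold change of -0.13 beside a median of 0.04. This value depended on the scaling. With library size only, miR-29a-3p was called lower in SE 24 h, with a log2 fold change of -0.74. SE 24 h had the lowest TMM factor and the highest erythroid share (76.5%, against 67.6% in control 24 h), and both muscle and heart miRNAs tested were called higher in it (median log2 fold change 1.81). Of the 4 erythroid miRNAs tested, 2 were higher and 0 lower, and of the 6 platelet and leukocyte miRNAs 0 were higher and 1 lower. The 1 liver and 1 neuronal miRNA tested were not called. Their part in the result was not tested. miR-29c-3p, under 50 CPM in both libraries, had a ratio of 1.05 (0.775 to 1.41). miR-29b-3p had 0 counts in SE 24 h and 59 in control 24 h. Those 59 counts equalled 1.07 low-count values, so the difference amounted to about 1 estimated molecule. The level of 1 low-count value in SE 24 h was 16.1 CPM, above the 15.0 CPM of miR-29b-3p in the control, so no fold is given.

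At 2 weeks, against the same 24 h control, miR-29a-3p was again the only member tested and was not called, beside 31.7% of 145 miRNAs called, 18.6% higher and 13.1% lower. Its ratio was 0.987 (0.915 to 1.06), a log2 fold change of -0.02. miR-29c-3p had a ratio of 0.751 (0.542 to 1.03) and miR-29b-3p a ratio of 0.390 (0.216 to 0.670), both under 50 CPM and not tested. For miR-29b-3p this compared 18 counts with 59, each about 1 estimated molecule. The 24 h and 2-week comparisons share their control, so their values are not independent of each other.

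The spread between control pools gives a scale for these differences. Tested in the same way, miR-29a-3p was 1.60-fold higher in control 8 h than in control 4 h and 1.64-fold higher in control 24 h than in control 4 h. It was called both times, where 59.3% of 177 and 69.6% of 181 miRNAs were called, 15.3% and 26.5% of those tested being higher in the later control. Between control 8 h and control 24 h, where 45.4% of 141 miRNAs were called, miR-29a-3p had a ratio of 1.03 (0.957 to 1.10) and was not called. The 8 h difference between SE and control (1.59-fold) was thus no larger than these. The 4 h difference (2.63-fold) was larger with control 4 h as its control. Against control 8 h and 24 h together its log2 fold change of 0.70 lay between the 0.68 and 0.71 seen between controls. miR-29c-3p, not tested between controls, was 9.93-fold higher (5.46 to 19.8) in control 24 h than in control 8 h, and its controls alone spanned 0.574 to 27.6 CPM. The count in control 8 h was 0.199 of its low-count value, so the size of that ratio was not resolved either.

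**Figure D3:**
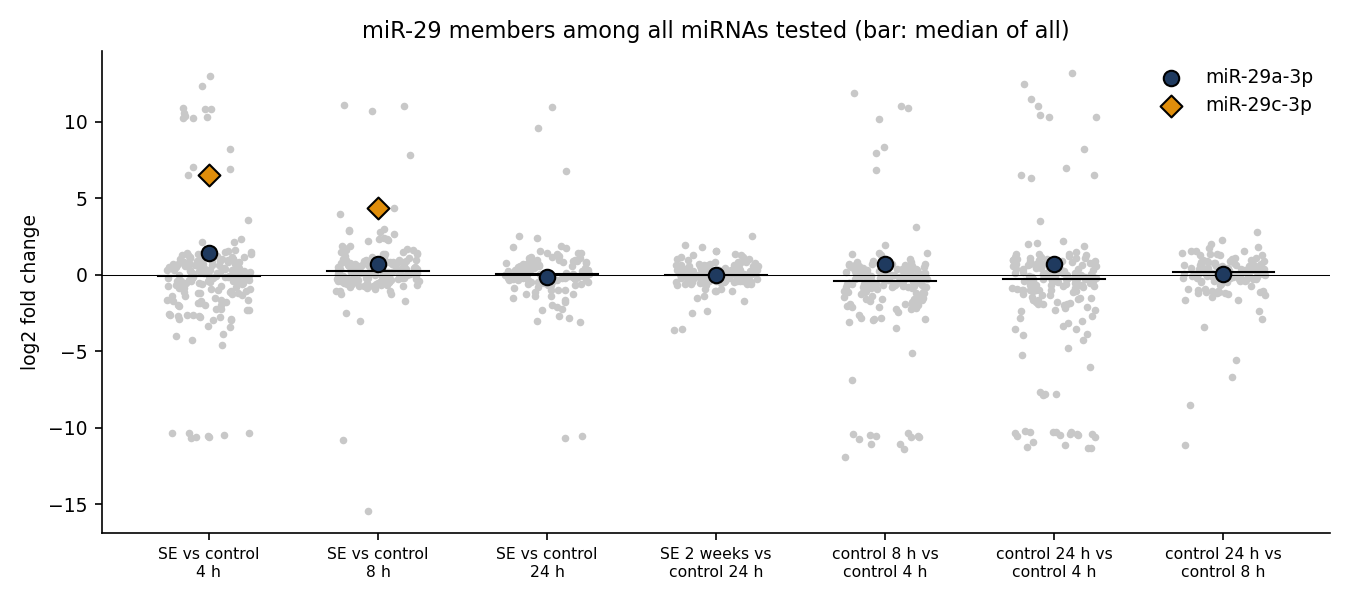
Log2 fold change of miR-29a-3p (circles) and miR-29c-3p (diamonds) among all miRNAs tested (grey points, median as a bar) in the 4 comparisons of SE with control and the 3 between controls. miR-29c-3p lay at 6.53 and 4.38 in SE at 4 h and 8 h, and miR-29a-3p lay between -0.13 and 1.39 across the comparisons. The control counts behind both values of miR-29c-3p were well under the low-count value.

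To set SE against control with an estimate of spread, the 3 SE and 3 control libraries of 4 h, 8 h and 24 h were compared with edgeR's quasi-likelihood test. These libraries are different times, not replicates. Of the family only miR-29a-3p passed the filter of 50 CPM in at least 3 of the 6 libraries. It averaged 536 ± 151 CPM (SD, n = 3) in SE and 341 ± 86.3 CPM in control, with a log2 fold change of 0.65 ± 0.36 (SE of the estimate) and a Benjamini-Hochberg adjusted p of 0.564, and was not called. It was higher in SE at 2 of the 3 times. Of the 137 miRNAs tested 0 (0%) were called, with 17 at an unadjusted p under 0.05, and DESeq2's Wald test called 8, of which miR-29a-3p was not part (adjusted p = 0.406).

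Shares within the family do not depend on the scaling between libraries. Of the 3p counts in the controls, miR-29a-3p held 99.8% (4 h), 99.3% (8 h) and 90.3% (24 h). In SE it held 90.7% (4 h), 89.4% (8 h), 92.6% (24 h) and 93.6% (2 weeks). The remainder was mainly miR-29c-3p, the member that differs by C10U. Its share was 0.237% (95% Wilson interval 0.0418 to 1.33) in control 4 h, 0.716% (0.410 to 1.25) in control 8 h and 6.30% (5.25 to 7.55) in control 24 h. In SE its share was 8.13% (7.20 to 9.17) at 4 h, 8.54% (7.51 to 9.71) at 8 h, 7.38% (5.98 to 9.08) at 24 h and 4.97% (3.91 to 6.30) at 2 weeks. At 4 h and 8 h the SE and control intervals, which take each read as independent, were far apart, and at 24 h they overlapped.

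Over the 3 acute times the share of miR-29c-3p averaged 8.02% ± 0.591 in SE and 2.42% ± 3.37 in control (SD, n = 3), and the groups did not overlap. An exact two-sided permutation test gave p = 0.1, the smallest this design allows, and the shares of the 3 arms were each tested in this way. For miR-29a-3p and miR-29b-3p the exact permutation p-values were 0.3 and 1. Such a lack of overlap was also counted over all miRNAs at 50 CPM or more in any of these libraries. miR-29c-3p reached 50 CPM in SE 4 h and SE 8 h alone, so it entered through the group where it is high. The shares that follow therefore do not measure how rare its separation is. Relative to miR-29a-3p counts, 8 of 205 miRNAs (3.90%) had all 3 SE libraries above all 3 controls, miR-29c-3p among them. By TMM level 21 of 206 miRNAs (10.2%) did, again with miR-29c-3p, whose SE range of 28.9 to 58.5 CPM began just above the highest control at 27.6 CPM. On plain library totals its level in SE 24 h (21.8 CPM) was below that of control 24 h (31.9 CPM), so the groups overlapped. Counted as estimated molecules, miR-29c-3p was 6 of 79 in SE 4 h and 4 of 48 in SE 8 h, against 0 of 4 in control 4 h and 0 of 28 in control 8 h. The intervals were then 3.53% to 15.6% in SE 4 h and up to 49.0% in control 4 h, and 3.29% to 19.6% in SE 8 h and up to 12.1% in control 8 h. They overlapped at both times, so at this depth of molecules the difference in share was not resolved.

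**Figure D4:**
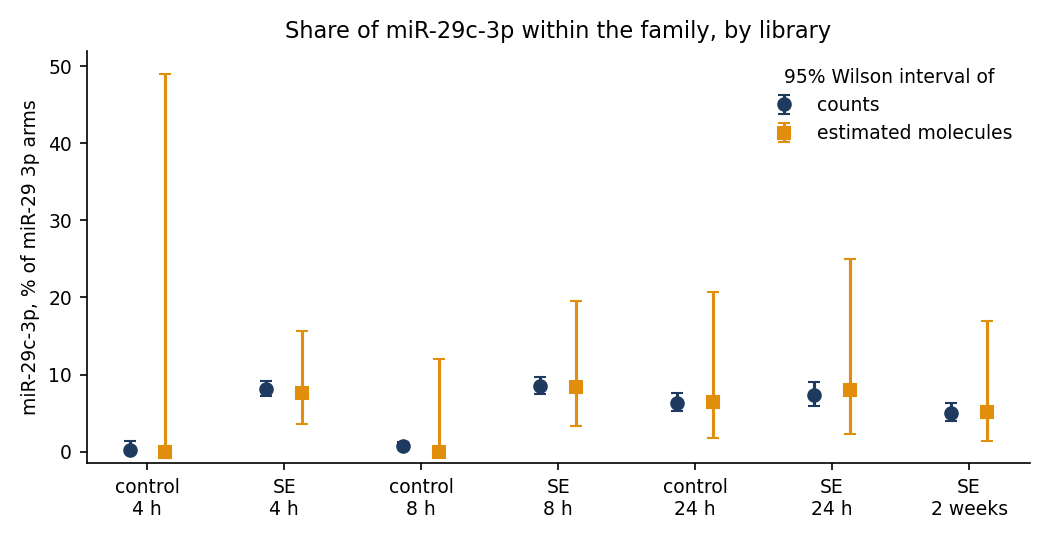
Share of miR-29c-3p among the 3p arms of the family in each of the 7 libraries, by counts (circles) and by estimated molecules (squares), with 95% Wilson intervals. By counts the early controls lay under 1% and all SE libraries between 4.97% and 8.54%, and by molecules the intervals of SE and control overlapped.

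For each 100 counts of miR-29a-3p there were 0.238 counts of miR-29c-3p in control 4 h and 0.721 in control 8 h, and between 5.31 and 9.56 in the other 5 libraries. Because these sequences differ by a single base and the alignment tolerated 2, some reads of either could have been assigned to the other. This was not tested.

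miRNAs whose levels most resembled those of the family were taken from the 129 other miRNAs at 50 CPM or more in at least 4 libraries, by Pearson's r of log2(CPM + 1) over the 7 libraries. For miR-29a-3p these were miR-30a-5p (r = 0.92), miR-27a-3p (0.84) and miR-30d-5p (0.84). miR-30a-5p was at 5513, 8763 and 7103 CPM in the controls and at 12270, 11572, 7979 and 6409 CPM in SE, so it too was highest in the 4 h and 8 h SE libraries. For miR-29c-3p they were miR-27a-3p (0.93), miR-106b-5p (0.92) and miR-21a-3p (0.91). miR-27a-3p was lowest in control 4 h (609 CPM) and highest in SE 8 h (1337 CPM), as was miR-29c-3p. miR-106b-5p, like miR-29c-3p, was at or near its minimum in the earlier controls, with 0 and 10.7 CPM at 4 h and 8 h. These values describe 7 points that share library depth and scaling, and control 4 h is the lowest point for miR-29a-3p and miR-29c-3p alike.

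Other miRNAs compiled as astrocyte-enriched (23 without the family), microglia-enriched (16) and brain-enriched (42) were described in the same comparisons. Of the astrocyte list at 4 h, 7 of 17 tested were higher and 2 lower in SE, with a median log2 fold change of 0.47 beside -0.06 for all miRNAs, of which 32.3% were higher and 34.9% lower. At 8 h 3 of 16 were higher and 1 lower, with a median of 0.10 beside 0.23 for all miRNAs, of which 35.1% were higher and 14.9% lower. miR-143-3p, its most abundant member, was called higher at both times (log2 fold changes 1.67 and 0.75). miR-21a-5p, the next, was not called, at 0.47 and 0.01. Of the microglia list at 4 h, 6 of 13 were higher and 0 lower (median 0.32), and at 8 h 1 of 14 was higher and 1 lower (median 0.03). Its most abundant member, miR-191-5p, was not called (0.21 and -0.08), and miR-181a-5p was called higher at 4 h (0.93) and not at 8 h (0.10). At 24 h 1 astrocyte-enriched miRNA was higher and 2 lower of 15, and 1 microglia-enriched miRNA was higher and 2 lower of 14, where 24.8% of all miRNAs were higher and 19.9% lower. At 2 weeks these numbers were 2 higher and 4 lower of 15, and 0 higher and 2 lower of 14, where 18.6% of all were higher and 13.1% lower. Of the brain list 12 of 35 were higher and 7 lower at 4 h (median 0.17), and 15 of 33 higher and 6 lower at 8 h (median 0.40). By 24 h 5 of 29 were higher and 7 lower, and at 2 weeks 4 were higher and 4 lower.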

How the data were processed

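Ago2-bound small RNA was sequenced from 7 pools of mouse plasma. Per the study's methods, reads had adapters removed, were kept within a size window and were matched to mouse miRBase by BLASTn with up to 2 mismatches, using the Chimera software, whose version is not given in the sources used here. The authors deposited raw counts per mature miRNA (640 miRNAs, totals of 2043220 to 5405357 per library), and all 7 columns were used. The submitters' processing notes name edgeR and limma without versions.

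From these counts, CPM, shares, Wilson intervals (95%) and exact counting intervals of ratios were computed in Python 3.11.15 (numpy 2.4.6, pandas 2.3.3, scipy 1.17.1, matplotlib 3.10.9). TMM factors over all 7 libraries, the exact test (BCV 0.1, prior count 0.125, at least 50 CPM on TMM-adjusted library size in either library, p under 0.05 and 1.5-fold) and the quasi-likelihood test with Benjamini-Hochberg adjustment were run in edgeR 4.0.16 under R 4.3.3, and DESeq2 1.42.0 was an alternative. The BCV, the p and fold thresholds and the 2-week control follow the study, whose 50 CPM limit, stated for its organ enrichment, was used here as the filter of the test. Both tests were tested on data simulated with a BCV of 0.1, which does not check them at a wider spread. The low-count value is the peak of a smoothed distribution (kernel bandwidth 0.15) of log-transformed counts, limited to 6 to 300. Detection limits use 3 counts.

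The members and lists were chosen with earlier results of these data known. All rows of the 4 hairpins are named, with the 3 miRNAs of most similar pattern for each member that reached 50 CPM and the 2 most abundant of each enrichment list. Sequences and loci are from RefSeq (GRCm38.p6), which held 551 of the 640 names and all 4 members, and GENCODE M21. Estimated molecules, and control 8 h with 24 h as the control of 4 h, were chosen after seeing the data.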

Additional observations from a re-analysis of the deposited data

Results flagged for a closer look

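miR-29a-3p pointed in opposite directions at different times. Its log2 fold change in SE was -0.13 at 24 h, after 1.39 at 4 h and 0.67 at 8 h, although the value at 24 h was not called and its sign turned against the 3 controls together. miR-29b-3p likewise had counts in SE alone at 4 h and 8 h, whereas at 24 h it had 59 counts in control and 0 in SE. Neither difference between times was tested, and each time had 1 library a side. Every count of miR-29b-3p was between 0 and 1.07 low-count values.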

How the results depend on the processing

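Counts of miRNAs called moved most with the BCV, the filter and the unit counted. With BCV 0.4 they were 58 (4 h), 23 (8 h), 19 (24 h) and 8 (2 weeks), against 127, 77, 63 and 46, and 45, 64 and 12 between controls (4 h and 8 h, 4 h and 24 h, 8 h and 24 h). Without a filter on low counts they were 310, 257, 261 and 238, since more miRNAs were tested, and with estimated molecules 31, 26, 20 and 14. At 4 h 84 were called against control 8 h and 24 h together. At 2 weeks 87 were called against the 3 controls together and 121 against control 4 h.

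Family members called were 2, 2, 0 and 0. At 4 h they were 1 with library size only, where 102 of all miRNAs were called. With that scaling miR-29c-3p was at 44.8 CPM in SE and was not tested. They were also 1 with BCV 0.4, where miR-29a-3p was not called, and 0 with estimated molecules. At 8 h they were 1 with library size only, DESeq2's size factors or BCV 0.4, where 83, 81 and 23 of all miRNAs were called. They were 4 without a filter, 3 higher and 1 lower, and 0 with estimated molecules. Of all 424 miRNAs tested at 8 h without a filter, 155 were higher and 102 lower. At 24 h they were 1 with library size only, lower in SE, where 88 of all miRNAs were called. Without a filter they were 1 at 24 h and 1 at 2 weeks, both lower in SE. Of all miRNAs without a filter, 135 were higher and 126 lower of 412 at 24 h. The same numbers at 2 weeks were 133 and 105 of 420. Against control 4 h they were 1 at 2 weeks, higher in SE. miR-29a-3p had a log2 fold change of 0.077 at 24 h against the 3 controls together. At 2 weeks it was 0.052 with scaling by library size alone, 0.0030 by DESeq2's size factors, 0.18 against the 3 controls together, 0.29 with estimated molecules, 0.69 against control 4 h and 0.018 against control 8 h. The cause of these shifts in the log2 fold change of miR-29a-3p was not tested.

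The comparison of 3 with 3 libraries called 3 miRNAs without a filter, 8 with DESeq2, and between 0 and 2 when the pair of a single time was left out. Over those fits miR-29a-3p was between 0.32 (without 4 h) and 0.99 (without 24 h). The labels give no replicate numbers, so SE and control were paired by time point alone, and with time point as a block it was 0.64 (edgeR adjusted p = 0.460). Of 42 alternatives for shares within the family, 36 stayed within the counting interval. Many of these could not move, because adding miR-29c-5p to the denominator changes the shares in control 8 h alone. Those that moved were in control 4 h and control 8 h, except the share of miR-29b-3p in SE 2 weeks. miR-29b-3p and miR-29c-5p came to about 1 estimated molecule or fewer in every library, so no difference in either was resolved.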
